A study of Mus musculus with 56 samples.

Results

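Heat shock proteins and other chaperones were followed in the lungs of mice given oleic acid (OA), a fatty acid that injures the lung when it reaches it through the blood. The members were the array's cDNA clones whose gene name starts with Hsp, Dnaj, Cct and a number, Pdia, Canx, Calr, Hyou1, Fkbp or Ppi and a letter, Fkbp5 left out, and they came to 90 clones of 53 gene symbols among 7625 named clones of 5883 symbols. They fell into 30 clones (21 genes) of cytosolic and nuclear heat shock proteins and J proteins, 13 clones (5 genes) of the chaperonin CCT, 27 clones (16 genes) of the endoplasmic reticulum (ER), 4 clones (3 genes) of mitochondria and 16 clones (8 genes) of cytosolic and nuclear immunophilins. All animals were female C57Bl/6J mice of 7 weeks, anaesthetised with xylazine and ketamine and injected in the tail vein. RNA of a whole lung was hybridised to nylon arrays. OA mice numbered 4 at 1 h, 6 at 1.5 h, 7 at 3 h, 4 at 4 h, 3 at 18 h and 3 at 24 h (27 in all), and mice given physiological serum numbered 8, with 2 at 1 h, 1 at 1.5 h, 2 at 3 h, 2 at 18 h, 1 at 24 h and none at 4 h. In whole lung RNA, fewer cells of a type and less RNA per cell cannot be told apart.

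Chaperones bind proteins that are not yet folded or have come unfolded. In the cytosol, Hsp70 proteins take up such chains with the help of J proteins, which deliver them, and Hsp110, which resets the cycle, while Hsp90 works on nearly mature clients, small heat shock proteins such as Hspb1 hold unfolded chains apart, and the ring-shaped CCT folds actin and tubulin. In the ER, Hspa5 (BiP) is the resident Hsp70, Canx and Calr hold glycoproteins by their sugars, and Pdia enzymes form disulfide bonds. Immunophilins (Ppi and Fkbp genes) turn the peptide bond before proline. Cytosolic members are known to be switched on by heat shock factor through heat shock elements, and ER members by the unfolded protein response, in part through the ER stress element.

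The letters of both elements were searched on both strands of the 250 bases before each RefSeq gene start (build GRCm38.p6), where 42 of the 53 member genes had a window. The ER stress element, searched as CCAAT and CCACG with 9 bases of any kind between them, was present in 37 of 32851 windows (0.113%) and in 35 of 27025 genes (0.13%). Of the 42 member genes 6 held it (14.3%), all of them ER genes. The heat shock element, searched as GAA, TTC and GAA or as TTC, GAA and TTC, with 2 bases of any kind between the triplets, was in 153 windows (0.466%) and in 0 of the 42 member genes, which says only that these letters are not in the windows. The 6 stretches are shown because these genes share an element that the choice of members did not use, and their expression is given with the ER results. They have the matched element in capitals, 40 bases on each side, 5′ to 3′ on the gene's strand. In Calr and Calr4 the match lies on the opposite strand.
Hspa5 (chr2:34771985-34772083, plus strand): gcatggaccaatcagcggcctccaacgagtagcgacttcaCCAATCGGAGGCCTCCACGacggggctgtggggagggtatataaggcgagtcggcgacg
Calr (chr8:84847035-84847133, minus strand): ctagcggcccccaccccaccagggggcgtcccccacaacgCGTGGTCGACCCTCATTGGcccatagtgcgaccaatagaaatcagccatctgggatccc
Calr4 (chr4:109218198-109218296, plus strand): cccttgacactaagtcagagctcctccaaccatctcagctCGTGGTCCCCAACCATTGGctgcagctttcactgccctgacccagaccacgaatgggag
Canx (chr11:50325760-50325858, minus strand): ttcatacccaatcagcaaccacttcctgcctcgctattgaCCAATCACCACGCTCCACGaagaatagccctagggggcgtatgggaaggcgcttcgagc
Pdia6 (chr12:17266451-17266549, plus strand): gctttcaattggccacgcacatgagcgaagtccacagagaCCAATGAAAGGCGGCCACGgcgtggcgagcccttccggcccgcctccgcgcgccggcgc
Dnajc3 (chr14:118937787-118937885, plus strand): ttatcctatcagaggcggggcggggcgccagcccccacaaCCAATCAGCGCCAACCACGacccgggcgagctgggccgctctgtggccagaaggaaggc
The element ended between 46 bases (Hspa5) and 156 bases (Calr4) before the start. These 6 genes had 12 clones, none of which was called over the time points.

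Values are log2 signals of the deposited table, averaged per mouse, in which 1 unit is a doubling, and all p-values come from limma with Benjamini-Hochberg adjustment over the 7625 clones, where a clone past 5% is said to be called. Clones are numbered by their spot on the array, and time points were joined into an early (1 and 1.5 h), an intermediate (3 and 4 h) and a late stage (18 and 24 h). A clone was taken as dim where its mean lay under 8.95, the level that 5% of spots without a gene name exceeded. Of the 90 member clones, 59 (65.6%) lay above it, against 36.6% of all clones. The spread between mice of a time point had a median SD of 0.246 for members and 0.219 for all clones, and the spread between 2 arrays of a mouse was 0.246 and 0.238. The lung label was borne out by all 3 epithelium clones on the array (Napsa, Sftpd and Slc34a2), which lay above the dim limit. The 1.5 h mouse P7L2, measured on 1 array, stood apart, with a correlation of 0.902 over all clones to the mean of its time point against 0.956 to 0.987 for the other 26 OA mice. In that mouse Hspa8 clone 2195 (10.07), Hspb1 (9.35), Hsp110 (7.09) and Calr (10.66) were the lowest of all 27, so the counts of calls over the time points, between stages and against serum are also given without it. Of the serum mice, 1 at 3 h correlated at 0.944 with the rest, against 0.970 to 0.983 for the other 7.

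Over the 6 OA time points, none of the 90 member clones was called by limma's moderated F test, against 2.01% of all clones (153), and the lowest adjusted p of a member was 0.0839 (Fkbp2). At an unadjusted p under 0.05 there were 10 members (11.1%) and 15.8% of all clones. The range of the time point means had a median of 0.38 among members and 0.33 among all clones, and it passed 1 in 3 members, Hspa8 clone 9965 (1.28), Calr4 clone 1373 (1.11) and Hspb1 (1.07). Each range fell under 1 when a single mouse was left out, to 0.91 (4 h mouse P13L3), 0.87 (1.5 h mouse P6L2, at 3.96 for Calr4) and 0.89 (4 h mouse P4L1). The Calr4 clone was also low in the 1 h mouse P2L2 and the 4 h mouse P11L2. On the scale of the array files these had 6.37 and 6.29, where P6L2 had 4.16. Without mouse P7L2 the count of members called over the time points stayed at 0, against 1.82% of all clones. The time of the highest mean is given as a description, since clones of a gene are not independent and the groups were not tested against each other. Of the 30 cytosolic heat shock and J protein clones, 11 (36.7%) were highest at 4 h and 13 (43.3%) at 24 h, where all clones had 17.5% and 23.0%. Of the 13 CCT clones, 8 (61.5%) were highest in the late stage (18 and 24 h), against 36.2% of all clones. Only 1 member clone of the 90, of mitochondrial Dnajc11, was highest at 3 h, against 9.42% of all clones.

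**Figure D1:**
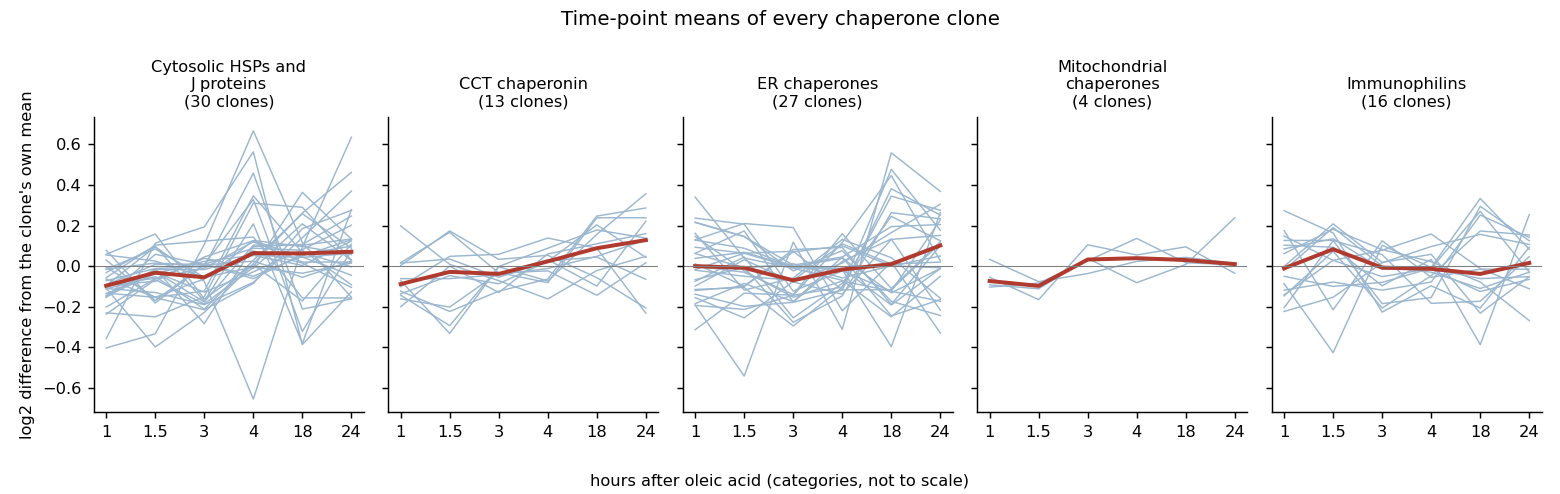
Each thin line is 1 clone, drawn as its mean at 1, 1.5, 3, 4, 18 and 24 h after OA minus the mean of those 6 values (log2), and the thick line is the median over the clones of the group. The medians stayed between -0.10 and 0.13, with the CCT median at -0.09 at 1 h and 0.13 at 24 h.

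Among the Hsp70 genes, the inducible Hspa1a (clone 998, which its near-identical copy Hspa1b can also bind) varied between mice of the same time point. Its values were 7.94, 7.16, 7.39 and 8.16 at 1 h, 7.49 to 9.30 with a median of 8.02 at 1.5 h, and 7.48 to 10.12 with a median of 7.93 at 3 h. At 4 h they were 7.94, 10.14, 7.60 and 8.64, at 18 h 7.52, 7.62 and 7.76, and at 24 h 8.02, 8.21 and 7.44. Single mice therefore stood above the dim limit at 1.5, 3 and 4 h, 3 of 27 in all, while the rest stayed under it, and the time points overlapped (adjusted p = 0.676). The 1.5 h mouse above it was P7L2, which stood apart over all clones. The constitutive Hspa8 (clone 2195) had means of 12.12 ± 0.37 (SD, n = 4) at 1 h, 11.83 ± 0.98 (SD, n = 6) at 1.5 h, 12.00 ± 0.30 (SD, n = 7) at 3 h, 12.24 ± 0.50 (SD, n = 4) at 4 h, 12.49 ± 0.44 (SD, n = 3) at 18 h and 12.69 ± 0.44 (SD, n = 3) at 24 h. Both Hspa8 clones had their highest mean at 24 h, but clone 9965 had its lowest at 4 h (12.09), where clone 2195 did not, and neither was called (adjusted p 0.583 and 0.346). For clone 2195 the serum mice, on the scale of the array files, had 12.50, 12.48 and 12.09 at 1 and 1.5 h. They had 13.07 and 13.28 at 18 h and 12.31 at 24 h. The clone named Hsp110, a name RefSeq lists as an older one of both Hsph1 and Hspa4, had means between 8.42 and 8.98, with the highest at 4 h (adjusted p = 0.556).

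The Hsp90 genes were bright, and none of their 7 clones was called over the time points. The 2 clones of Hsp90aa1, the stress-responsive form, had ranges of 0.52 and 0.47, and the 5 clones of Hsp90ab1, the constitutive form, ranges of 0.21 to 0.59, with adjusted p between 0.309 and 0.978 over the 7. All 7 had a positive late minus early difference, from 0.15 to 0.40, and none was called there. In all 7, the 18 h serum mice, on the scale of the array files, lay above the serum mice of 1 and 1.5 h. For Hsp90ab1 clone 3861 the serum values were 11.76, 11.87 and 11.75 at 1 and 1.5 h. They were 12.98 and 12.40 at 18 h and 11.96 at 24 h. Among small heat shock proteins, Hspb1 and Hspb8 were singled out after their values were seen. Hspb1 was 10.81, 10.52, 9.98 and 11.46 at 1 h, 9.35 to 11.22 with a median of 10.99 at 1.5 h, and 10.88 to 11.50 with a median of 11.18 at 3 h. It was 12.08, 11.74, 10.94 and 12.30 at 4 h, 11.03, 11.38 and 11.21 at 18 h and 10.80, 11.26 and 10.77 at 24 h. Of the 4 h mice, 3 lay above every mouse of the other times. The intermediate minus early difference of Hspb1 was 0.76 ± 0.21 (SE, adjusted p = 0.0513). It was 0.61 ± 0.16 (SE) with an adjusted p of 0.0442 without mouse P7L2, and 0.55 ± 0.22 (SE) with an adjusted p of 0.302 when the number after the letter L in the sample titles, described with the stages, was a block. Hspb8 was also highest at 4 h (9.52, against 8.85 to 9.06 elsewhere, adjusted p = 0.347), and so was the J protein Dnajb1, a partner of inducible Hsp70 (8.87, against 8.22 to 8.62, adjusted p = 0.123), whose clone was dim. No serum mice were taken at 4 h. Those of the other times are given on the scale of the array files. They lay at 10.80 to 11.71 for Hspb1, 8.73 to 9.71 for Hspb8 and 8.78 to 9.51 for Dnajb1. On that scale the 4 h OA mice lay at 10.86 to 12.29, 8.94 to 9.71 and 8.61 to 9.00. Dnajb1, also singled out after its values were seen, was the only member called between neighbouring time points, for 18 h minus 4 h (1.11% of members, against 1.04% of all clones). Its values were 8.78, 8.70, 8.88 and 9.12 at 4 h and 8.48, 8.11 and 8.05 at 18 h, without overlap, a difference of -0.65 ± 0.15 (SE, adjusted p = 0.0327). It kept the call in 28 of 35 alternatives, and with the number after L as a block it was -0.77 ± 0.18 (SE, adjusted p = 0.0735). Leaving out any of the 18 h mice P10L1 and P12L1 or the 4 h mice P4L1, P11L2 and P13L3 also ended the call, with adjusted p of 0.0638 to 0.224.

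**Figure D2:**
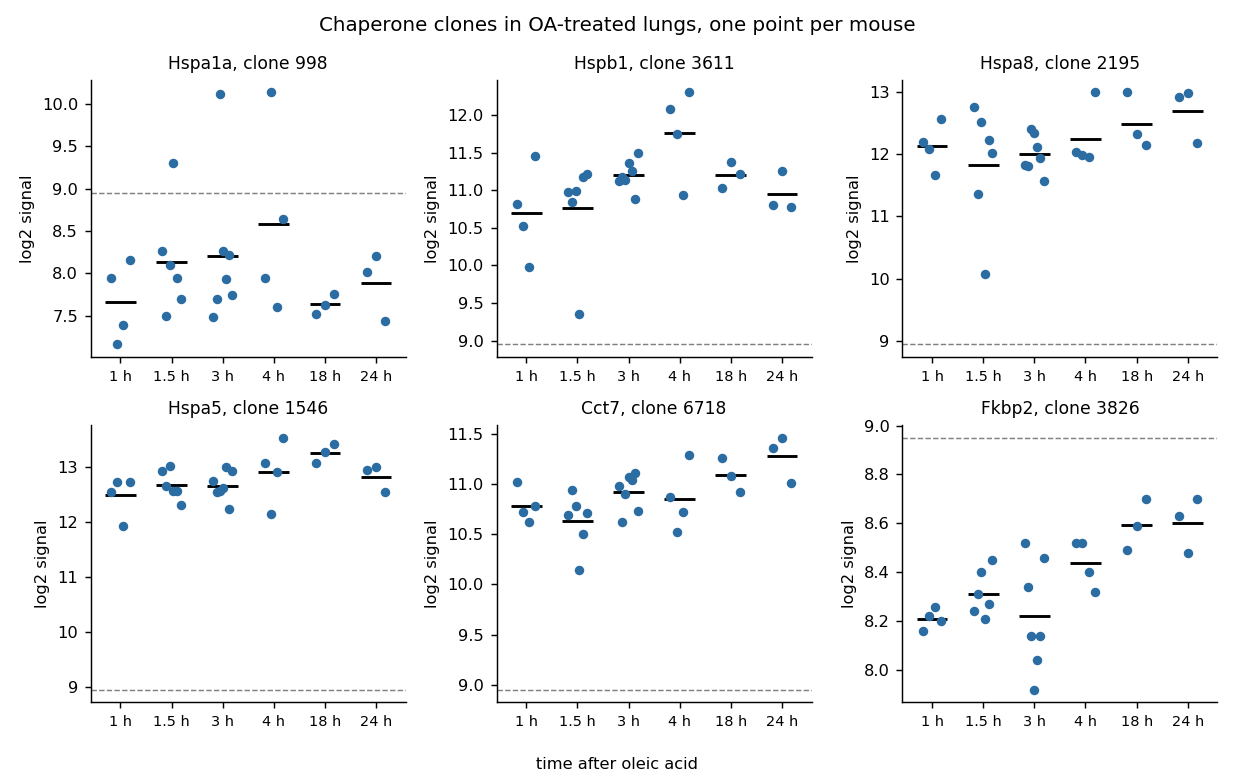
Each point is the log2 signal of 1 OA mouse at its time point, the bar is the mean and the dashed line the dim limit of 8.95; each panel has its own scale. Hspa1a passed the limit in 3 mice, Hspb1 was highest in 3 of the 4 mice at 4 h, and Fkbp2 lay under the limit in every mouse.

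Among CCT subunits, the 3 clones of Cct7 all had higher late than early means, by 0.44 ± 0.12, 0.42 ± 0.13 and 0.47 ± 0.12 (SE), with adjusted p of 0.0675, 0.0779 and 0.0464. With the number after L as a block they gave 0.03, 0.20 and 0.12 (adjusted p 0.998 for each), and late minus intermediate within number 1 gave -0.01, 0.09 and 0.01. For the called clone 6718, the early values were 11.02, 10.72, 10.62 and 10.78 at 1 h and 10.14 to 10.94 with a median of 10.70 at 1.5 h. The late values were 11.26, 11.08 and 10.92 at 18 h and 11.36, 11.46 and 11.01 at 24 h. The groups overlapped, with 1 mouse at 1 h and 1 at 1.5 h above the lowest late mouse, and the difference was 1.39-fold. Serum mice for clone 6718, on the scale of the array files, had 10.96, 10.83 and 10.92 at 1 and 1.5 h. They had 10.74, 10.88 and 10.72 at 18 and 24 h. The late minus early change of OA minus serum was not called for any CCT clone. The 4 clones of Cct3 had late minus early differences of 0.15 to 0.37, the 3 of Cct5 of -0.16 to -0.04, the 2 of Cct2 of -0.21 and 0.13, and Cct4 of -0.09, none called.

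In the ER, Hspa5 had 4 clones. For clone 1546 the values were 12.56, 12.74, 11.94 and 12.74 at 1 h, 12.31 to 13.02 with a median of 12.62 at 1.5 h and 12.24 to 13.00 with a median of 12.62 at 3 h. They were 13.09, 12.16, 12.91 and 13.54 at 4 h, 13.08, 13.28 and 13.42 at 18 h and 12.95, 13.00 and 12.55 at 24 h. The 18 h mice lay above every early and 3 h mouse. Serum mice, on the scale of the array files, had 11.24, 11.77 and 11.74 at 1 and 1.5 h. They had 11.68 and 12.42 at 3 h, 12.68 and 12.35 at 18 h and 11.49 at 24 h. In OA mice the late minus early difference of clone 1546 was 0.46 ± 0.17 (SE, adjusted p = 0.132). The other 3 clones gave 0.28, 0.20 and -0.16. Calr had a mean of 11.75 ± 0.32 (SD, n = 4) at 1 h and 12.42 ± 0.21 (SD, n = 3) at 18 h, with a late minus early difference of 0.53 ± 0.18 (SE) that was not called (adjusted p = 0.106). Pdia4 gave 0.48 (adjusted p = 0.159), the 2 Pdia6 clones 0.18 and 0.42, the 2 Canx clones -0.08 and -0.37, the 2 Calr4 clones 0.83 and -0.13 and Pdia3 -0.15, none called. The 0.83 of Calr4 was 0.46 without mouse P6L2, with the 1 h mouse P2L2, also low for this clone, still in the fit. Over the 12 clones of the 6 genes whose promoter stretches are printed above, 8 differences were positive, from -0.37 to 0.83 with a median of 0.19, and the lowest adjusted p was 0.106.

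Fkbp2, an ER prolyl isomerase singled out after its values were seen, was the second member called in the late minus early comparison, by 0.34 ± 0.08 (SE, 1.26-fold, adjusted p = 0.0344). Its values were 8.16, 8.22, 8.26 and 8.20 at 1 h, 8.21 to 8.45 at 1.5 h with a median of 8.29, 8.49, 8.59 and 8.70 at 18 h and 8.63, 8.48 and 8.70 at 24 h. The late mice lay above all early mice without overlap, but every value was under the dim limit. Serum mice, on the scale of the array files, showed the same order, with 8.54, 8.21 and 8.55 at 1 and 1.5 h and 8.76, 8.88 and 8.83 at 18 and 24 h. The late minus early change of OA minus serum was -0.02 ± 0.16 (SE, adjusted p = 0.991). Among immunophilins the 6 clones of Ppia (cyclophilin A, to which processed copies of the gene can bind) had ranges of 0.20 to 0.63 and adjusted p of 0.491 to 0.979. The 4 mitochondrial clones, of Dnaja3, Dnajc11 and Dnajc15, lay under the dim limit with ranges of 0.13 to 0.35.

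Between stages, none of the 90 members was called for intermediate minus early (2.57% of all clones) or for late minus intermediate (3.19% of all clones). Unadjusted p was under 0.05 in 11 members (12.2%) for intermediate minus early, against 16.7% of all clones. For late minus intermediate it was so in 18 members (20%), against 15.6% of all clones. For late minus early, 2 members were called (2.22%), the Cct7 and Fkbp2 clones above and both higher, against 1.65% of all clones (1.18% higher), which is near the background. That background ran from 0.485% without the 24 h mouse P7L1 to 6.22% without the 1.5 h mouse P4L3. At an unadjusted p under 0.05 there were 28 members (31.1%, with 20 higher and 8 lower), against 20.6% of all clones (10.3% higher and 10.3% lower). The median late minus early difference was 0.12 over members and 0.00 over all clones, and by group it was 0.15 for CCT, 0.15 for cytosolic heat shock and J proteins, 0.00 for the ER, 0.12 for mitochondria and -0.08 for immunophilins. The late stage also differed in the number that follows the letter L in the sample titles, which the labels do not explain: it was 1 in all 6 late mice and 2 or 3 in all 10 early mice. Late minus early with that number as a block, also for Cct7 above, is therefore indirect. It is linked only through the intermediate mice with number 1, which were 2 at 3 h and 1 at 4 h. With that number as a block, Cct7 clone 6718 gave 0.12 ± 0.18 (SE, adjusted p = 0.998), while Fkbp2 gave 0.58 ± 0.10 (SE, adjusted p = 0.0353). Within number 1, late minus intermediate was 0.45 ± 0.10 (SE, adjusted p = 0.135) for Fkbp2 and -0.73 ± 0.14 (SE, adjusted p = 0.0729) for Hspb1. Within numbers 2 and 3, intermediate minus early of Hspb1 was 0.39 ± 0.48 and 0.67 ± 0.15 (SE), with adjusted p of 0.773 and 0.484. Without mouse P7L2, only Fkbp2 of the 90 members was called late minus early, against 1.35% of all clones, with Cct7 clone 6718 at an adjusted p of 0.051. Leaving out that mouse, 1 of the 90 members was called for intermediate minus early (Hspb1), against 2.02% of all clones. For late minus intermediate it was also 1 (Calr), against 3.5% of all clones. Markers of other cells, also without serum subtraction, moved between stages. For late minus early, of 6 neutrophil clones 1 (S100a8) was lower, with the summed signal of the list between 6080 and 38925 in early mice and 4465 and 8721 in late mice. No clone was called among 19 B and plasma cell, 17 T cell, 11 endothelium and 17 red cell clones, and 1 of 3 in the epithelium list (Slc34a2, lower). For intermediate minus early, 7 of the 19 B and plasma cell clones and 1 of the 17 T cell clones were called, all lower, and over the time points 4 B and plasma cell clones were called. Their part in the result was not tested.

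**Figure D3:**
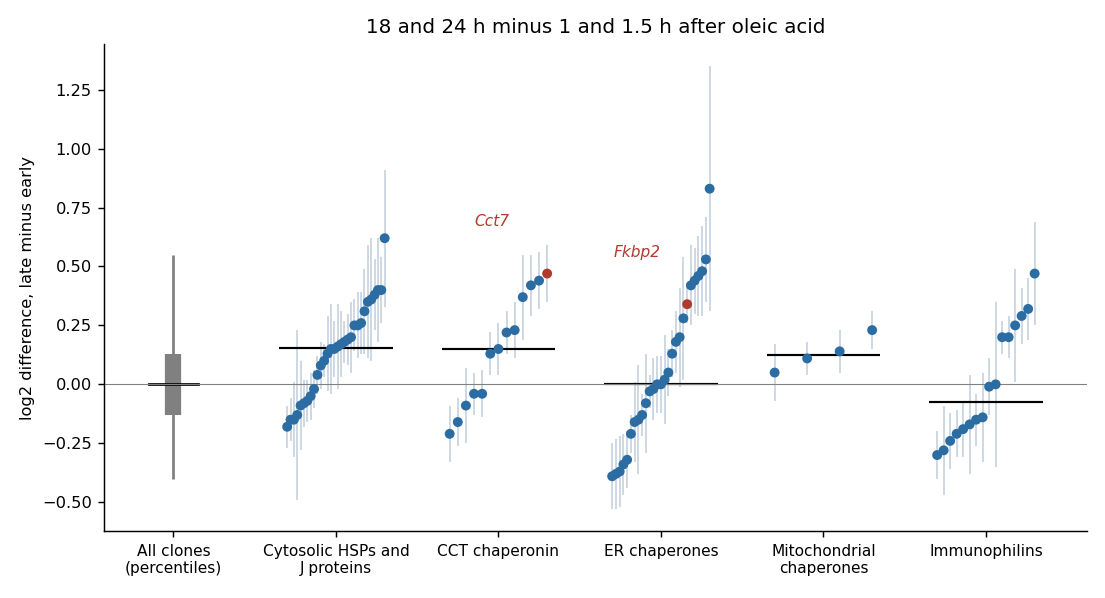
Each point is the late (18 and 24 h) minus early (1 and 1.5 h) log2 difference of 1 clone with its SE, red where called, and the short line is the median of the group. The grey bars show where all clones lie, the thin one from -0.40 to 0.55 leaving out 2.5% at each end and the thick one from -0.13 to 0.13 leaving out 25% at each end.

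Partner genes outside the members were read from a list of heat shock factors and co-chaperones (28 clones) and of the unfolded protein response and ER quality control (32 clones). None of the first and 1 of the second was called over the time points. For late minus intermediate 2 of the second were called, 1 higher (Sdf2l1) and 1 lower (Eif2ak3, a sensor of the unfolded protein response, -0.39 ± 0.09 SE, adjusted p = 0.0209). Eif2ak3 was singled out after its values were seen. Its serum mice, on the scale of the array files, had 7.29 and 7.62 at 3 h. They had 7.12 and 6.74 at 18 h and 7.22 at 24 h, all under the dim limit of 8.86 on that scale. The clone called over time was Sdf2l1, an ER protein of the Hspa5 and J protein complex and a known target of the unfolded protein response. Its values were 7.38, 7.46, 7.62 and 7.62 at 1 h, 7.21 to 7.76 with a median of 7.56 at 1.5 h, 7.28 to 7.50 with a median of 7.43 at 3 h, 7.54, 7.55, 7.72 and 7.64 at 4 h, 8.17, 8.16 and 8.46 at 18 h and 7.84, 7.94 and 8.03 at 24 h. All late mice lay above all earlier ones (adjusted p = 0.000114), and late minus early was 0.57 ± 0.07 (SE, 1.48-fold, adjusted p = 0.000157). The clone was dim throughout. In the serum mice it lay between 6.90 and 8.25 with a median of 8.05 on the scale of the array files, and the late minus early change of OA minus serum was 0.18 (adjusted p = 0.91). The unfolded protein response factors Xbp1 (adjusted p = 0.447), Atf4 (0.332) and Atf3 (0.37) and the heat shock factors Hsf1 (0.204) and Hsf2 (0.432) were not called over the time points.

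Against serum, the arrays themselves differed, with medians of the raw log2 signal between 6.75 and 9.36 on OA arrays (middle 8.32) and 5.73 and 8.39 on serum arrays (middle 7.62). The part of this in what follows was not tested. After quantile normalization of the array files, the mean OA minus serum difference over the 5 shared time points was called in 49 of 90 members (54.4%), 30 higher and 19 lower, against 61.6% of all clones (34.3% higher and 27.3% lower). The median difference was 0.04 over members and 0.05 over all clones. With each array centred on its median instead, 71 members were called, 20 higher and 51 lower, against 65.3% of all clones (4979, with 2169 higher). The median moved to -0.27 over members and -0.06 over all clones, so the split between higher and lower members depended on the scaling. Without mouse P7L2 52 members were called (32 higher), against 63% of all clones. Without the 3 h serum mouse that stood apart it was 48 (29 higher), against 60.4% of all clones. By group, 14 cytosolic heat shock and J protein clones were higher and 4 lower, 1 CCT clone higher and 4 lower, 9 ER clones higher and 7 lower, 5 immunophilin clones higher and 3 lower and 1 mitochondrial clone each way. OA and serum mice did not overlap in 6 members (6.67%), against 12.7% of all clones. Marker clones were also called, 10 of 11 for endothelium (3 higher), 12 of 19 for B and plasma cells (5 higher), 9 of 17 for T cells (7 higher), 6 of 17 for red cells (3 higher), 2 of 3 for epithelium (1 higher) and 3 of 6 for neutrophils (1 higher), and their part was not tested.

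The largest member difference was that of Pdia3 (ERp57), the disulfide enzyme that works with Canx and Calr. OA mice lay between 8.63 and 10.28 with a median of 9.48, and the serum mice between 6.91 and 7.76 with a median of 7.51. No OA mouse reached down to the serum mice, and the difference was 2.00 ± 0.19 (SE, adjusted p = 4.37e-10). No serum mouse, and 23 of the 27 OA mice, lay above the dim limit of its own arrays, so that OA was at least 1.23-fold higher. Canx clone 1097 was higher by 1.26 ± 0.17 (SE, 2.40-fold, adjusted p = 2.55e-07), from 9.11 to 10.91 in OA mice and from 8.67 to 9.37 in serum mice. Ppic clone 8666, an ER cyclophilin, differed by 1.64 ± 0.11 (SE, adjusted p = 3.13e-13) without overlap, with all serum mice dim. Hspa14 (1.03) and Cct5 clone 3063 (0.99) were dim in both treatments, so no fold is given. Of the 3 Cct5 clones only clone 3063 was called, and the lowest difference among them was 0.03. The other Cct5 clones, 5937 and 7289, lay above the dim limit. Fkbp8, which restrains cell death at mitochondria, differed by -1.13 ± 0.20 (SE, adjusted p = 1.72e-05), from 7.68 to 9.72 in OA mice and from 9.08 to 10.25 in serum mice, and 4 of 27 OA mice were above the dim limit of their own arrays. Hsp90aa1 was higher in both clones, by 0.61 ± 0.11 and 0.65 ± 0.12 (SE), with adjusted p of 4.2e-05 and 3.11e-05. For clone 3233 the OA mice lay between 11.14 and 12.48 and the serum mice between 10.97 and 11.71. Hspa1a was higher by 0.72 ± 0.30 (SE, adjusted p = 0.039), with OA mice between 7.06 and 10.04 and serum mice between 6.56 and 8.54. All serum mice lay under the dim limit of 8.86. So did the OA mice other than P7L2 (9.17), P15L2 (10.01) and P12L3 (10.04), so no fold is given.

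**Figure D4:**
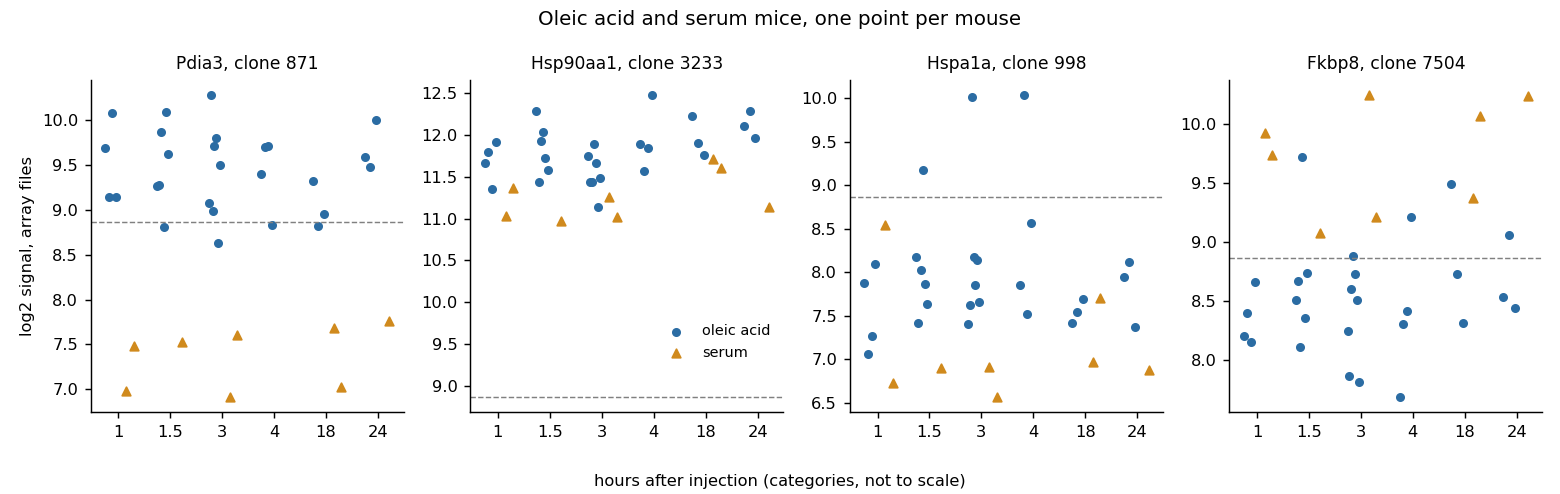
Each point is the log2 signal from the array files in 1 mouse (circles OA, triangles serum) at its time point, with the dim limit of 8.86 dashed and a scale for each panel. Pdia3 was higher in all 27 OA mice than in all 8 serum mice, while the ranges of Hsp90aa1, Hspa1a and Fkbp8 overlapped.

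Clones of the same gene did not always give the same answer against serum. Of 23 member genes with 2 or more clones, 10 had at least 2 clones called, and in 4 of these the called clones went both ways (40%, against 33.1% of the 644 such genes on the whole array). The 4 were Hspa5, Hsp90ab1, Ppic and Pdia5. The Hspa5 clones gave 0.88, 0.76, 0.23 and -0.65, the first, second and last of them called, and the Ppic clones 1.64 and -0.30. The Pdia5 clones gave 0.49 and -0.53, and Canx clone 8849 gave 0.00 where clone 1097 gave 1.26. The genes whose called clones went 1 way were Hsp90aa1, Ppia (4 of 6 clones higher, by 0.50 to 0.63), Dnajb4 (0.46 and 0.52), Dnajb9 (0.27 and 0.72), Dnajc2 (0.57 and 0.60) and Cct3 (2 of 4 lower, by -0.31 and -0.33). Their clones did not all vary together over the 27 OA mice, with a correlation of 0.88 for Hsp90aa1 and -0.04 for Dnajc2. Over the 23 genes the median correlation between clones ran from -0.41 to 0.88, with a middle value of 0.33. Split by time, 37 members (41.1%) were called at 1 and 1.5 h, against 38.3% of all clones. At 3 h there were 29 (32.2%, against 40.1%) and at 18 and 24 h 25 (27.8%, against 40.4%). The test of the change itself, late minus early of the OA minus serum difference, called 0 members by limma, against 0.0262% of all clones. At an unadjusted p under 0.05 there were 9 members (10%) and 8.25% of all clones.

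**Figure D5:**
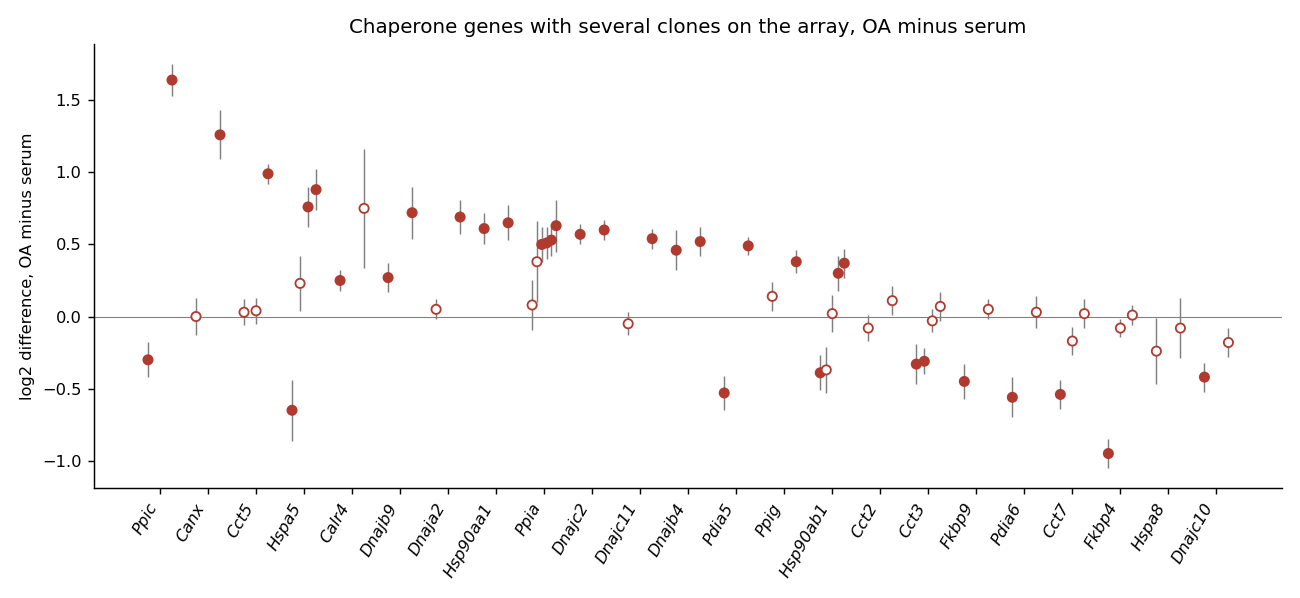
Each point is the OA minus serum log2 difference of 1 clone with its SE, for the 23 member genes with more than 1 clone, filled where called. Filled points lie on both sides of 0 in Ppic, Hspa5, Pdia5 and Hsp90ab1.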

How the data were processed

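Lung RNA of 27 OA mice and 8 serum mice was labelled with 33P and hybridised to 60 nylon cDNA arrays of 9984 spots, of which 50 OA arrays and 9 serum arrays were used. The authors quantified the images with Bzscan2, took out spots made too bright by a neighbour, corrected for neighbours and local background and quantile-normalized the values. They deposited intensities on a linear scale for each array and a table of log2 values for the series. The OA columns of the table matched the image signal at constant diameter (correlation 0.9974 to 0.9998 per array), the serum columns less closely (0.8155 to 0.9301), and which arrays entered a serum column stays unknown. The deposited array files also hold a quality mark per spot, which was not used. Arrays of a mouse were averaged, which treats them as 1 replicate. An array at 1.5 h with no settled mouse was not used, and a P7L3 array whose title gives 3 h and whose source gives 1.5 h was taken as 3 h. The 2 arrays of 1.5 h serum were counted as 1 mouse, as the study's scheme has it.

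OA time points were compared on the log2 table with limma 3.58.1 in R 4.3.3 (lmFit, eBayes, 1 mean per time point, moderated F test and contrasts of stage means). OA and serum were compared on the array files' image signal, set to a floor of 1, log2-transformed and quantile-normalized over 60 arrays. Calls used Benjamini-Hochberg adjustment at 5% over 7625 named clones, and the script was tested on simulated data. The number of mice limits the precision, with 8 serum mice in all and 1 serum mouse each at 1.5 and 24 h. The p-values set a difference against the spread between mice of a group, which the fit takes as the same in every group. The dim limit was the 95th percentile of 2159 spots without a gene name. Whether the array files' intensities already hold the background correction is not given in the sources used here, and clone sequences were not used here.

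The members, the gene lists and the tests were chosen with earlier results of these data known. Genes named with values were members called over time (none), the clones of Hspa8, Hspa5, Hsp90, Hspa1, Hsp110, Canx, Calr, Calr4, Pdia3, Pdia4, Pdia6, Ppia and the Cct genes, the 6 called members with the largest OA minus serum differences, and partner genes called over time. Hspd1, Hspe1 and Ppib have no named clone here. Alternatives were other signals and scalings, serum subtraction, a filter on dim clones, each array as an observation, the number after L as a block or within it, the doubtful arrays in or out, 3 stages for 6 time points and each mouse left out.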

Additional observations from a re-analysis of the deposited data

Results flagged for a closer look

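Among 64 sets of 4 to 7 OA mice of a time point, for 16 clones of the genes followed mouse by mouse, 4 held a mouse far from the others by Dixon's criterion at 95%, where chance gives about 1 in 20. Mouse P4L1 at 4 h had 12.99 for Hspa8 clone 2195, with the nearest of the other mice at 12.03. Mouse P15L2 at 3 h had 10.12 for Hspa1a clone 998, with the nearest at 8.26. Mouse P2L2 at 1 h had 9.68 for Cct7 clone 3387, with the nearest at 9.96. Mouse P7L2 at 1.5 h, the mouse that stood apart over all clones, had 9.35 for Hspb1 clone 3611, with the nearest at 10.84.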

How the results depend on the processing

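Of the 90 members, the 0 called over the time points became 3 with 3 stages in place of 6 time points, 3 with each array as an observation, 1 with the number after L as a block and 46 with the serum mean subtracted, and 0 to 1 with each mouse left out in turn (all clones 153, and 470, 438, 71 and 4264 in these settings, and 62 on the fitted signal). For intermediate minus early, the 0 became 1 (Hspb1) on the array files' image signal, median-centred or quantile-normalized, without the conflicting P7L3 array, without dim clones and with each array as an observation, and 30 after serum subtraction, with 0 to 1 when a mouse was left out. For late minus intermediate, the 0 became 1 with 3 stages, 3 with each array as an observation, 1 with the L block and 16 after serum subtraction, with 0 to 3 when a mouse was left out. For late minus early, the 2 became 4 with 3 stages, 4 with each array as an observation, 1 with the L block, 0 on the fitted signal, 23 after serum subtraction and 0 with the spread of the serum mice in the fit, an alternative chosen after seeing the data. Leaving out each mouse gave 0 to 6, the 6 without the 1.5 h mouse P4L3, and 21 of the 27 omissions changed the count. For OA minus serum, the 49 became 29 at 3 h alone and 25 at 18 and 24 h alone, with 45 to 52 when a mouse was left out. Without dim clones only 59 members were tested and 28 were called, against 58.1% of all clones tested there. The count rose to 54 on the fitted signal, 59 with the serum columns of the deposited table and 71 with median-centring (all clones 54%, 67.3% and 65.3%). The late minus early difference of Fkbp2 reversed to -0.02 (adjusted p = 0.878) after serum subtraction. This subtraction takes 1 serum value per time point from every mouse and so leaves out the serum spread. The 4 h mice, which had no serum mice of their own time, had the 3 h serum mean subtracted, and all serum-subtracted fits hold this substitution. Among its 36 alternatives Fkbp2 kept its call in 24 and lost it in 11, and Cct7 clone 6718 kept it in 18 of 37. The 6 largest OA minus serum differences kept their direction and call in all their alternatives, but that of Hspa14 ran from 0.40 to 1.19 against 1.03. All-clone counts of the stage comparisons moved by over 1.5 times too: intermediate minus early from 196 to 63 (fitted signal), 376 (each array), 69 (L block) and 2756 (serum subtraction), late minus intermediate from 243 to 79, 44 (L block) and 2042, and late minus early from 126 to 49, 350, 2 and 1809, and to 214 with 3 stages. Without dim clones, which leaves fewer clones tested, 97 were called over the time points, 128 for intermediate minus early, 118 for late minus intermediate and 1602 for OA minus serum (4700 with them). Leaving out 1 mouse moved the all-clone count to 89 (without P7L1) to 299 (without P4L3) over the time points, 101 (without P2L2) to 392 (without P4L3) for intermediate minus early, 122 (without P8L1) to 277 (without P4L1) for late minus intermediate and 37 (without P7L1) to 474 (without P4L3) for late minus early. In the other settings the cause was not tested. No paired analysis was possible because the replicate names are mouse names that OA and serum do not share.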
